A study of Mus musculus with 26 samples.

Results

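The genes described here are 41 genes of the skeletal muscle contractile machinery, measured in pieces of mouse brown fat. Members were chosen by symbol from what the genes are known to do, and each symbol is represented by its listed transcript with the most counts over the table's libraries. All 41 were among the 9378 genes of one of the deposited count tables, called the IgG table, and 9 of them were among the 1189 genes of the other, called the knockout table. By role they belong to the thick filament (10 genes), thin filament (10), Z disc and titin (8), calcium handling (5) and energy supply (7), with Smpx, a small muscle protein, set apart.

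The study sequenced RNA that came down with IMP2, an RNA-binding protein encoded by Igf2bp2, from brown fat (RNA immunoprecipitation, here IP), and total RNA from the same kind of tissue. Mice were Imp2-/- knockouts (KO) and wild-type littermates (WT) on the C57Bl/6J background. All 12 brown fat libraries came from males of 10 weeks on normal chow that had spent the night at 4 °C, a cold exposure that all groups share. The knockout table holds 2 KO IMP2 IPs (libraries 23 and 24), 2 WT IMP2 IPs (21 and 22), 2 KO total RNA libraries (18 and 19) and 2 WT total RNA libraries (16 and 17). The IgG table holds 1 WT IMP2 IP (25), 1 WT IP made with nonspecific IgG (26) and 2 WT total RNA libraries (15 and 20). The KO IMP2 IP and the IgG IP are the controls for RNA that comes down without IMP2 as the target of the antibody. No IP is matched to a total RNA library in the labels. They also leave unsaid if the 2 libraries of a group are 2 animals, and every p-value given here measures the spread between libraries, which may be technical.

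Muscle shortens when myosin heads on the thick filament pull on actin in the thin filament, and the Z disc anchors thin filaments end to end while titin spans from Z disc to thick filament. Calcium let out of the sarcoplasmic reticulum binds troponin on the thin filament and starts the contraction, and creatine kinase and glycolysis resupply the ATP. Fast and slow fibres build this machinery from different members of the same gene families, and interscapular brown fat of the mouse lies against skeletal muscle.

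Summed counts over named genes were 780333 to 4916160 per library. The knockout table is a selected list, so its totals are not sequencing depths. Values are CPM (counts relative to the library's scaled total), and for the 9 members of both tables the total is that of the genes both tables list, on one scale for all 12 libraries. The tissue label was checked on brown adipocyte markers, of which 11 of 11 were listed, with Ucp1, the uncoupling protein of brown fat, at 6917 CPM in IMP2 IP 25 and 6398 CPM in IgG IP 26, against 5983 and 5304 CPM in total RNA 15 and 20 (CPM over the genes of the IgG table). The KO label was not checked here, as Igf2bp2 is listed in the IgG table, whose libraries are all WT.

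Muscle mRNAs other than Des differed by 2.54-fold to 8.01-fold between the 2 libraries of every group in the knockout table. Their sum differed by 73.7-fold over all 12 libraries. Of the 9 members in both tables, these 8 are called the fibre genes here (Acta1, Tnnc2, Tnni2, Tnnt3, Tcap, Atp2a1, Pvalb and Ckm). The other is Des, which encodes desmin, an intermediate filament protein made in smooth as well as skeletal muscle. Summed over the 8 fibre genes, CPM was 363 and 1377 in KO IMP2 IPs 23 and 24, 1525 and 7092 in WT IMP2 IPs 21 and 22, 573 and 2374 in KO total RNA 18 and 19, and 2619.8 and 10141 in WT total RNA 16 and 17. In the IgG table the sum was 13484 in IMP2 IP 25 and 10384 in IgG IP 26, against 26739 and 15094 in total RNA 15 and 20. Library 15 was highest and library 23 lowest, and within the knockout table library 17 was 27.9-fold above library 23. In each group of 2 libraries in the knockout table, the number 24, 22, 19 or 17 library was the high one. Des spanned 1.76-fold over the same 12 libraries. In tissue pieces of this kind, fewer muscle fibres and less muscle RNA per fibre cannot be told apart.

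The spread between the 2 libraries of a group was larger for 8 of the 9 members than for nearly all other genes. Des, the member left out of the fibre genes, had ratios of 1.01 in KO IMP2 IPs and 1.20 in WT IMP2 IPs. In total RNA its ratios were 1.10 in KO and 1.29 in WT. The ratio of the higher to the lower library had a median over 1189 genes of 1.11 in KO IMP2 IPs, 1.14 in WT IMP2 IPs, 1.14 in KO total RNA and 1.11 in WT total RNA. Over the 8 fibre genes it ran between 3.03 and 4.81 in KO IMP2 IPs, 2.54 and 8.01 in WT IMP2 IPs, 3.28 and 5.52 in KO total RNA, and 2.87 and 6.45 in WT total RNA. More than 2-fold between the libraries of a group was reached by 19 genes in KO IMP2 IPs, 12 in WT IMP2 IPs, 17 in KO total RNA and 12 in WT total RNA, and the 8 fibre genes were among them each time. Genes past 2-fold in all 4 groups numbered 9, and they were the 8 fibre genes and A930016O22Rik, a long noncoding RNA that overlaps Ckm.

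**Figure D1:**
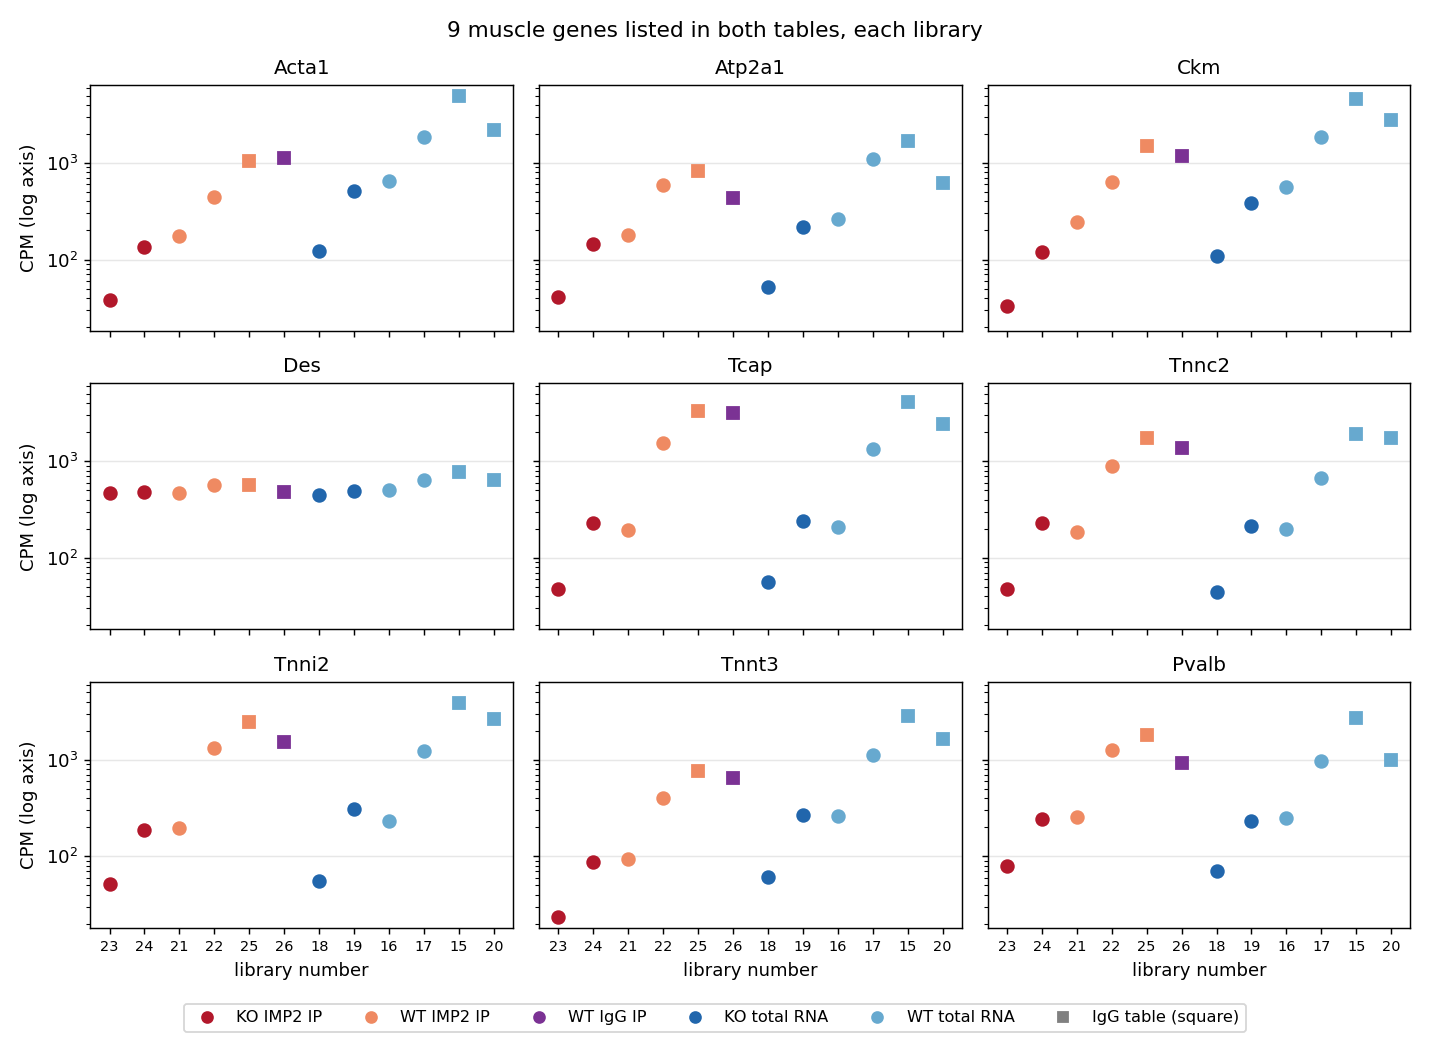
CPM (log axis) of the 9 muscle genes that both tables list, in each of 12 libraries, with IPs to the left of total RNA and squares for libraries of the IgG table. The 8 fibre genes are low in KO libraries 18 and 23 and high in library 15, while Des stays between 445 and 782 CPM.

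Promoters of 3 members that varied together are shown, chosen because Acta1 and Ckm were lower and Tnnc2 higher in IMP2 IPs when set against the other fibre genes, as given further on. Each is the 250 bases before the transcription start in RefSeq (GRCm38.p6), written 5′ to 3′ on the gene's strand. Capitals mark E-boxes (CANNTG, the letters that myogenic factors such as MyoD bind), the CArG box that serum response factor binds, and the letters TATAAA of many core promoters. The Acta1 window is at chr8:123894776-123895025 on the minus strand, Ckm at chr7:19410844-19411093 on the plus strand, and Tnnc2 at chr2:164779735-164779984 on the minus strand.
Acta1: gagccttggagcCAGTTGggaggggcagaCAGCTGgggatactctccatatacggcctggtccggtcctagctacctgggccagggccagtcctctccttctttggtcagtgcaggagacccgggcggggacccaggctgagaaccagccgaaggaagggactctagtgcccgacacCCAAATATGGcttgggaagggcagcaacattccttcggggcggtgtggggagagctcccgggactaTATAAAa
Ckm: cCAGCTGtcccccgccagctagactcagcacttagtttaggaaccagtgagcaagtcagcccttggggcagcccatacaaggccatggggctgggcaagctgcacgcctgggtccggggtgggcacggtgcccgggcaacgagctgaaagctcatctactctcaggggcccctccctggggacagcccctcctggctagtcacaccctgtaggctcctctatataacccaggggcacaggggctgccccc
Tnnc2: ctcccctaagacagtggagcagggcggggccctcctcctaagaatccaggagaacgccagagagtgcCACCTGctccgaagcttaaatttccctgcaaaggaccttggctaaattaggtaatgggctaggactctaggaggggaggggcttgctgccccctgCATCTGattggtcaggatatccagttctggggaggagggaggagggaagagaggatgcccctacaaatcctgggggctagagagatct
The Acta1 window held 2 E-boxes, 1 CArG box and 1 TATAAA, the Ckm window 1 E-box, and the Tnnc2 window 2 E-boxes. Promoters from the RefSeq table were used for 33 of the 41 members, with 40 windows in all. Member promoters on 1 chromosome were not read, although the set of all promoters includes that chromosome. E-boxes were found on either strand in 82.5% of these windows, against 66.2% of all 32851 promoters. The CArG box was in 12.5% of them (5 of 40), against 1.47% of all promoters. Overlapping windows of Ldb3 are among these 5, so the same site may be counted more than once. TATAAA was in 15% of the windows, against 12.4% of all promoters. The MEF2 site, named for another muscle transcription factor and able to overlap TATAAA, was in 2.5% (Ttn alone), against 0.508% of all promoters. Such matches describe the letters of these windows only.

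The thin filament is represented in both tables by actin and the fast troponin subunits. Acta1, skeletal muscle actin, was at 38.3 and 135 CPM in KO IMP2 IPs 23 and 24, 175 and 447 CPM in WT IMP2 IPs 21 and 22, 124 and 512 CPM in KO total RNA 18 and 19, and 650.2 and 1866 CPM in WT total RNA 16 and 17. In the other table Acta1 was at 1047 CPM in WT IMP2 IP 25 and 1121 CPM in WT IgG IP 26, against 4932 and 2194 CPM in WT total RNA 15 and 20. Library 23 was lowest and library 15 highest, and each IP lay below every total RNA library of its own genotype and table except that KO IP 24 was above KO total RNA 18.

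Tnnt3, fast troponin T, which ties the troponin complex to tropomyosin, was at 23.7 and 88.1 CPM in KO IMP2 IPs 23 and 24, 93.4 and 399 CPM in WT IMP2 IPs 21 and 22, 61.6 and 269 CPM in KO total RNA 18 and 19, and 260.5 and 1119 CPM in WT total RNA 16 and 17. In libraries of the IgG table it was at 759.6 CPM in WT IMP2 IP 25 and 640.0 CPM in WT IgG IP 26, against 2822 and 1660.5 CPM in WT total RNA 15 and 20. The low and the high libraries were the same ones as for Acta1.

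Tnni2, fast troponin I, which blocks the actin sites until calcium arrives, was at 51.4 and 189 CPM in KO IMP2 IPs 23 and 24, 197 and 1312 CPM in WT IMP2 IPs 21 and 22, 55.6 and 307 CPM in KO total RNA 18 and 19, and 229 and 1223 CPM in WT total RNA 16 and 17. For libraries 25, 26, 15 and 20 the values were 2458 CPM in WT IMP2 IP 25 and 1525 CPM in WT IgG IP 26, against 3869.7 and 2622 CPM in WT total RNA 15 and 20. In the knockout table WT IP 22 was the highest of the 8 libraries, just above WT total RNA 17.

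Tnnc2, the fast troponin C that senses calcium, was at 47.8 and 230.0 CPM in KO IMP2 IPs 23 and 24, 184 and 888 CPM in WT IMP2 IPs 21 and 22, 44.8 and 212 CPM in KO total RNA 18 and 19, and 201 and 666 CPM in WT total RNA 16 and 17. Tnnc2 was at 1756 CPM in WT IMP2 IP 25 and 1381 CPM in WT IgG IP 26, against 1937 and 1757 CPM in WT total RNA 15 and 20. Here IPs and total RNA overlapped in both genotypes, and IMP2 IP 25 was level with total RNA 20.

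At the Z disc, Tcap, a titin cap protein, was at 47.4 and 228 CPM in KO IMP2 IPs 23 and 24, 193 and 1545 CPM in WT IMP2 IPs 21 and 22, 56.4 and 240.4 CPM in KO total RNA 18 and 19, and 208 and 1344 CPM in WT total RNA 16 and 17. It was at 3312 CPM in WT IMP2 IP 25 and 3177 CPM in WT IgG IP 26, against 4141 and 2455 CPM in WT total RNA 15 and 20. Tcap differed by 8.01-fold between WT IPs 22 and 21 and by 6.45-fold between WT total RNA 17 and 16. Des was at 471 and 477 CPM in KO IMP2 IPs 23 and 24, 471 and 567 CPM in WT IMP2 IPs 21 and 22, 445 and 488 CPM in KO total RNA 18 and 19, and 504 and 649 CPM in WT total RNA 16 and 17. Des was at 565 CPM in WT IMP2 IP 25 and 478 CPM in WT IgG IP 26, against 782 and 638 CPM in WT total RNA 15 and 20. Des showed none of the large steps between libraries of a group, with a largest within-group ratio of 1.29 in WT total RNA of the knockout table.

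Among calcium handling genes, Atp2a1, the fast-fibre calcium pump of the sarcoplasmic reticulum, was at 41.1 and 145 CPM in KO IMP2 IPs 23 and 24, 179 and 594 CPM in WT IMP2 IPs 21 and 22, 51.6 and 218 CPM in KO total RNA 18 and 19, and 262 and 1100.0 CPM in WT total RNA 16 and 17. It was at 836 CPM in WT IMP2 IP 25 and 432 CPM in WT IgG IP 26, against 1677 and 624 CPM in WT total RNA 15 and 20. Pvalb, the calcium buffer parvalbumin of fast fibres, was at 80.2 and 243 CPM in KO IMP2 IPs 23 and 24, 257 and 1265 CPM in WT IMP2 IPs 21 and 22, 71.2 and 233 CPM in KO total RNA 18 and 19, and 249 and 973 CPM in WT total RNA 16 and 17. Both genes had higher values in library 22 than in 21 and in library 24 than in 23, as all the fibre genes did. In the IgG table Pvalb was at 1818 CPM in WT IMP2 IP 25 and 923 CPM in WT IgG IP 26, against 2739 and 986 CPM in WT total RNA 15 and 20.

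Ckm, the muscle creatine kinase that refills ATP from phosphocreatine, was at 33.2 and 119 CPM in KO IMP2 IPs 23 and 24, 246 and 643 CPM in WT IMP2 IPs 21 and 22, 108.3 and 383 CPM in KO total RNA 18 and 19, and 559.5 and 1850.2 CPM in WT total RNA 16 and 17. It was at 1498 CPM in WT IMP2 IP 25 and 1185 CPM in WT IgG IP 26, against 4622 and 2796 CPM in WT total RNA 15 and 20. Ckm had the same order of total RNA libraries as Acta1, with library 18 lowest and library 15 highest. Atp2a1, Tnnt3 and Ckm overlap Rabep2, Prr33 and A930016O22Rik on the genome, and whether counting used the strand is not given in the sources used here, so shared reads cannot be told apart.

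KO total RNA was compared with WT total RNA to ask what the deletion does to mRNA levels in brown fat. All 9 members had lower mean levels in the KO, with log2 ratios of -2.36 for Tcap, -2.30 for Atp2a1, -2.28 for Ckm, -2.03 for Tnnt3, -1.97 for Acta1, -1.72 for Tnnc2 and -0.30 for Des. The median was -1.98, against 0.00255 for all 1189 genes. Of the 9 members 0 passed the threshold of 0.05, with adjusted p between 0.367 and 0.565 (edgeR quasi-likelihood test, n = 2 libraries per group). DESeq2 and limma-voom called 0 too, and 3 members had an unadjusted p under 0.05 (Ckm, Atp2a1 and Acta1). Of the 1189 genes edgeR called 0%, limma-voom 0 and DESeq2 35 of the 1142 to which it gave an adjusted p. CPM ranges did not overlap and were lower in the KO for 5 of 9 members (Acta1, Atp2a1, Ckm, Des and Pvalb), against 23.3% of all genes. With its standard error the ratio was -1.97 ± 0.82 for Acta1 and -2.36 ± 1.21 for Tcap. An effect of the genotype and a difference in muscle content of the pieces cannot be told apart. A p that misses the threshold does not show that the groups are alike.

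The KO IMP2 IPs were also below the WT IMP2 IPs. This comparison has no library in common with that of total RNA, but the labels do not say if both used the same pieces. An effect of the genotype and muscle content of the pieces cannot be told apart here either. Values ran between log2 -2.68 for Tcap and for Tnni2 and -0.15 for Des, with a median of -2.16 against -0.0114 for all genes. Again 0 of 9 members passed with edgeR, DESeq2 or limma-voom, with 2 (Ckm and Pvalb) at an unadjusted p under 0.05 in edgeR and adjusted p between 0.191 and 0.661. CPM ranges did not overlap for 6 members (Acta1, Atp2a1, Ckm, Tnni2, Tnnt3 and Pvalb), all lower in the KO, against 25.5% of all genes. Over the whole table edgeR called 0% of genes, limma-voom 0 and DESeq2 93 of 1189.

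IPs were compared with total RNA of their genotype to ask which mRNAs come down. In WT, Acta1 was at log2 -2.05 ± 0.83 (adjusted p = 0.107), Tnnt3 at -1.53 and Ckm at -1.47, while Tcap was at 0.14, Tnnc2 at 0.28 and Pvalb at 0.29 (SE, n = 2 per group, edgeR). Without WT IP 22 the WT values were -2.04 for Tcap, -1.26 for Tnnc2 and -1.28 for Pvalb. In KO, Acta1 was at -1.94 ± 0.84 (adjusted p = 0.116), Ckm at -1.77 and Tnnt3 at -1.66, while Tcap was at -0.19, Tnnc2 at 0.03 and Pvalb at 0.02. Medians were -0.18 in WT and -0.62 in KO, against 0.0107 and -0.00783 for all genes. No member passed in either genotype with edgeR, DESeq2 or limma-voom, and Acta1 alone had an unadjusted p under 0.05, in both. Genes called by edgeR made up 22.4% of the table in WT and 26.3% in KO, while DESeq2 called 395 genes in WT and 458 in KO and limma-voom 245 and 344. With the libraries of both tables in 1 model, 1 member, Acta1, passed in WT, at log2 -1.92, among 339 of 1189 genes called. In WT the IP and total RNA ranges did not overlap for 1 member, Acta1, against 32% of all genes that were lower without overlap, and for none in KO, against 29.8%. The difference between genotypes in this ratio, KO minus WT, lay between log2 -0.70 for Tnni2 and 0.23 for Atp2a1, with 0 of 9 called by edgeR, DESeq2 or limma-voom, 0 at an unadjusted p under 0.05 and an adjusted p of 0.999 for each, in a table where 0% of genes were called.

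Because the fibre genes varied together between libraries, each was next set against the other 7 in the same library, where the amount of muscle RNA in the piece enters both sides. Counts of Tnnt3 per count of the other 7 were 0.0698 and 0.0683 in KO IMP2 IPs, 0.0652, 0.0596 and 0.0597 in WT IMP2 IPs 21, 22 and 25 and 0.0657 in the IgG IP, against 0.120 and 0.128 in KO total RNA and 0.110, 0.124, 0.118 and 0.124 in WT total RNA 16, 17, 15 and 20. The 6 IPs stayed between 0.0596 and 0.0698, while their summed CPM of the 8 fibre genes ran from 363 to 13484. The 6 total RNA libraries stayed between 0.110 and 0.128, with sums from 573 to 26739 CPM. The 2 ranges of the ratio did not overlap. Acta1 was also lower in all 6 IPs, at 0.0672 to 0.130, than in any total RNA library, at 0.170 to 0.330. Tnnc2 was higher in all 6 IPs, at 0.137 to 0.201, than in total RNA, at 0.0703 to 0.132. The share of all genes that would separate in this way was not computed. By CPM in the knockout table, with 2 libraries a side, 32% of all genes in WT and 29.8% in KO were lower in IPs without overlap. Those shares rest on another measure and on fewer libraries. Whether the lack of overlap is particular to these mRNAs was not tested.

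The other 5 overlapped in places. Ckm was at 0.0944 to 0.193 in IPs, against 0.192 to 0.272 in total RNA, and the overlap came from WT IP 21. Tcap was at 0.145 to 0.441 in IPs, with the IgG IP highest, against 0.0864 to 0.194 in total RNA. Pvalb was at 0.0975 to 0.284 in IPs, with the IgG IP lowest, against 0.0699 to 0.142 in total RNA. Tnni2 was at 0.148 to 0.227 in IPs and 0.0960 to 0.210 in total RNA, and Atp2a1 at 0.0434 to 0.133 in IPs and 0.0431 to 0.122 in total RNA, so that both overlapped widely.

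**Figure D2:**
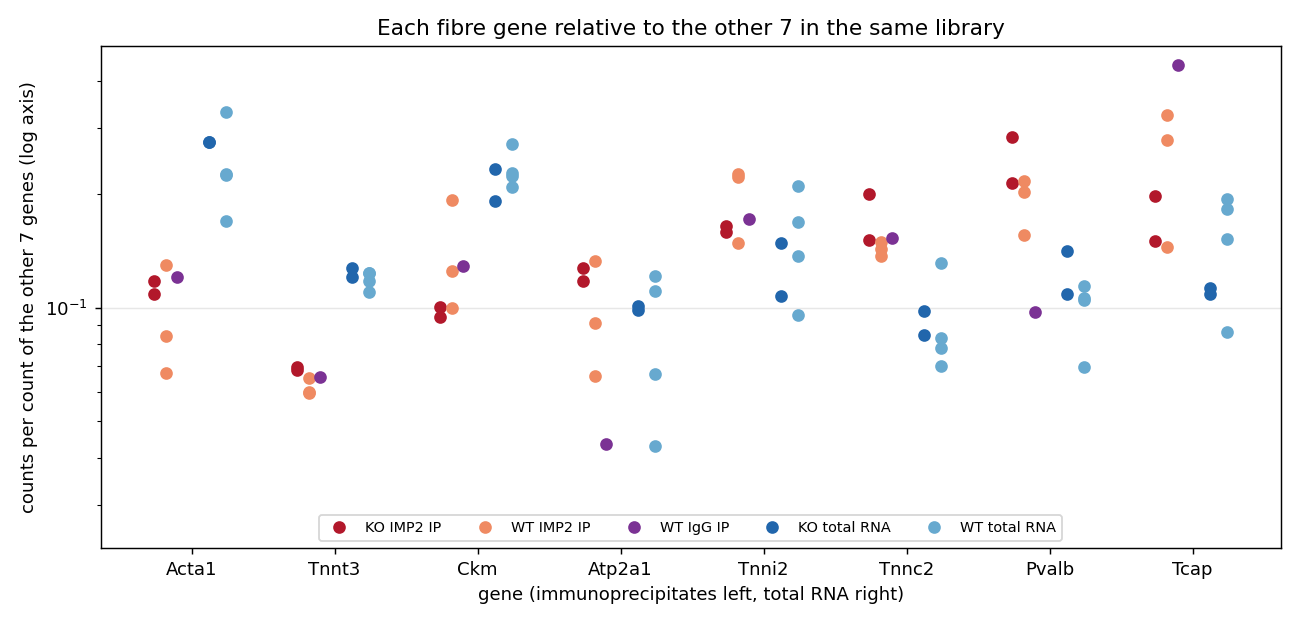
Counts of each fibre gene per count of the other 7 in the same library (log axis), with the 6 IPs on the left and the 6 total RNA libraries on the right of each gene. Tnnt3 sits between 0.0596 and 0.0698 in IPs and between 0.110 and 0.128 in total RNA, and Acta1 and Tnnc2 also do not overlap. The share of all genes without overlap was not computed for this measure.

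The same was fitted as a model with the log2 summed CPM of the other fibre genes as a covariate, over both tables with a term for the table, which was chosen after the values had been seen (edgeR quasi-likelihood test, 5 residual degrees of freedom, p adjusted over 1189 genes). In WT IMP2 IPs against WT total RNA, 7 of 9 members passed. Each member has a fit of its own, and in that for Acta1 29.1% of all genes passed, with 325 to 347 of 1189 over the 9 fits. Of these 3 were lower, namely Acta1 at log2 -1.49 ± 0.19 (SE, adjusted p = 0.000610), Tnnt3 at -0.96 ± 0.12 (adjusted p = 0.000361) and Ckm at -0.92 ± 0.15 (adjusted p = 0.00145). The other 4 were higher, with Tcap at 1.0015 ± 0.17 (adjusted p = 0.00183), Pvalb at 0.87, Tnnc2 at 0.73 and Tnni2 at 0.61. Acta1, Tnnt3, Ckm and Tcap passed in each of 12 fits that left out 1 library. Tnnc2 and Tnni2 missed without WT total RNA 16 or 17 or without WT IP 22, and Pvalb missed without WT IP 22.

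In KO IMP2 IPs against KO total RNA 6 of 9 passed, where 23.6% of all genes did in the fit for Acta1 and 274 to 285 of 1189 over the 9 fits. Acta1 was lower at log2 -1.38 ± 0.26 (adjusted p = 0.00400), Ckm at -1.22 ± 0.20 (adjusted p = 0.00237) and Tnnt3 at -0.84, and Pvalb was higher at 0.96, Tnnc2 at 0.95 and Tcap at 0.86. Acta1 and Ckm passed in each of 12 fits without 1 library. Tnnt3 missed without KO total RNA 18 or KO IP 24, and its values stayed between -0.89 and -0.80. Tcap missed without KO total RNA 19, KO IP 23 or KO IP 24, Tnnc2 without either KO total RNA library or KO IP 24, and Pvalb without any 1 of libraries 18, 19, 23 and 24.

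The IgG IP, with 1 library whose spread is taken from the other groups, had 4 of 9 past the threshold against WT total RNA, where 21.9% of all genes were in the fit for Acta1 and 237 to 260 of 1189 over the 9 fits. Tnnt3 was lower at log2 -0.85 ± 0.18 (adjusted p = 0.00881), Ckm at -0.94 and Acta1 at -0.93, and Tcap was higher at 1.55 ± 0.25 (adjusted p = 0.00435). Acta1 missed in 8 of 11 fits, those without library 15, 16, 17, 21, 22, 23, 24 or 25. In this fit Des, made in smooth muscle too, was called in none of the 3 comparisons, at log2 0.10 in KO IPs, -0.15 in WT IPs and -0.43 in the IgG IP. Both WT comparisons share the WT total RNA libraries.

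No member passed for the difference between genotypes in this ratio, KO minus WT, where values lay between log2 -0.30 and 0.26, with 0 at an unadjusted p under 0.05 and 0% of all genes called. Nor did any pass for WT IMP2 IP against IgG IP, with values between -0.56 and 0.78, 1 at an unadjusted p under 0.05 and 1.35% of all genes called in the fit for Acta1. At a fixed muscle level 0 members passed for KO against WT total RNA, between -0.63 and 0.49 with 1 at an unadjusted p under 0.05 and 0% of genes called, or for KO against WT IMP2 IP, between -0.94 and 0.41 with 1 at an unadjusted p under 0.05 and 0.168% of genes called in that fit. DESeq2 and limma-voom were not run with this covariate. The values are relative among fibre mRNAs, since the covariate is made of the other members, and do not say which of them moved against other mRNAs.

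**Figure D3:**
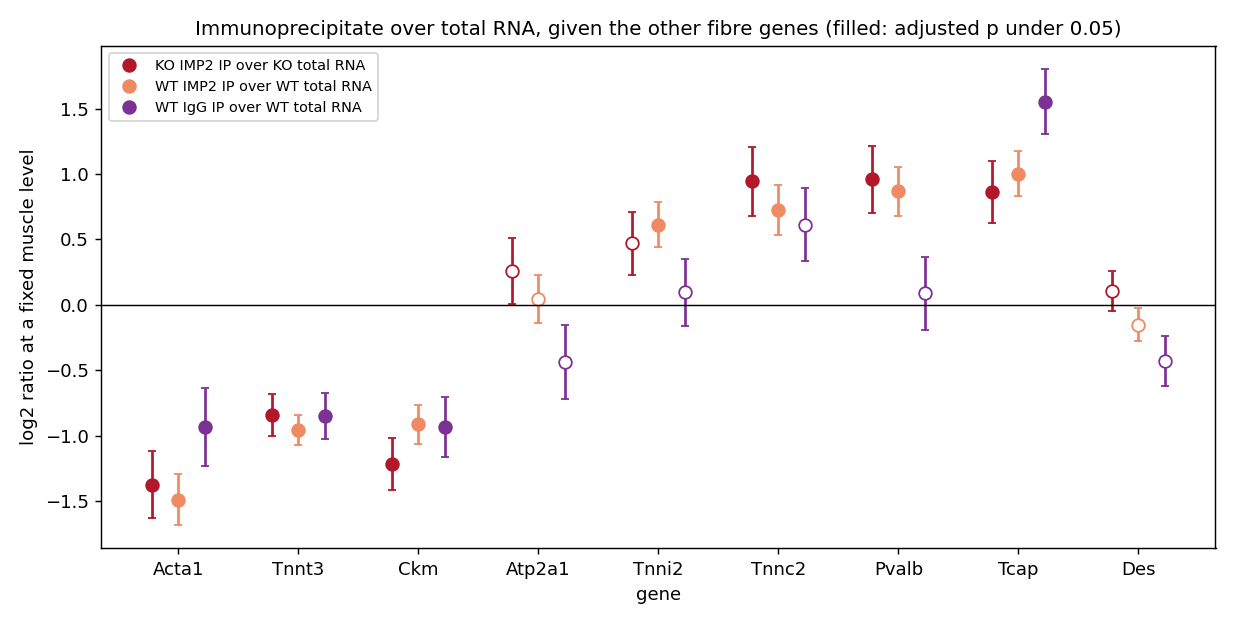
Log2 ratio of IP over total RNA at a fixed level of the other fibre genes, with SE, for KO IMP2 IPs, WT IMP2 IPs and the WT IgG IP, filled where the adjusted p was under 0.05. Acta1, Tnnt3 and Ckm lie below 0 and Tcap above 0 in all 3.

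The IgG table lists the rest of the contractile apparatus, with 1 library in each IP group. The spread in its tests comes from total RNA 15 and 20, and edgeR shared it over all genes of the table. Casq1 was 3.51-fold apart between these libraries and Myl3 1.10-fold, yet each had an SE of 0.43 for the IMP2 IP. A muscle gene there is judged against a spread pooled over genes, not its own. Total RNA 15 and 20 themselves differed in the summed level of the members. Summed over the 41 members, CPM was 24670 in library 15 and 13226 in library 20 (CPM over the genes of the IgG table, used from here on). The sum was 12906 CPM in IMP2 IP 25 and 9634 CPM in IgG IP 26. The IMP2 IP was close to total RNA 20, and the IgG IP was lowest. Both comparisons with total RNA share these 2 libraries, and the part that muscle content has in them was not tested.

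In the IMP2 IP 36 of 41 members had values below total RNA, with a median of log2 -0.67 against -0.0310 for 8966 genes, and 4 passed, all lower. Called genes made up 0.903% of those tested, and 0.859% were called lower. DESeq2 called 1 member, with no adjusted p for 4, and limma-voom 3. In the IgG IP 36 of 41 were below total RNA, with a median of -1.16 against -0.00648 for all genes, and 10 passed, all lower, where 2% of genes were called and 1.52% were called lower. DESeq2 called 4 of these members, with no adjusted p for 4, and limma-voom 10. The IMP2 IP calls of Acta1, Mybpc2 and Myl1 and the IgG IP calls of Acta1, Atp2a1, Casq1, Mybpc2 and Tnni1 missed the threshold in DESeq2. Members without an adjusted p there are left out of this list, so for the IgG IP it is not complete. By library size alone the IgG IP calls of Atp2a1, Mybpc2, Smpx and Tnni1 were lost. With both tables in 1 model, where 9 of the 41 are tested, 1 member (Acta1) passed for the IMP2 IP, among 339 of 1189 genes called, and 0 for the IgG IP, among 281.

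**Figure D4:**
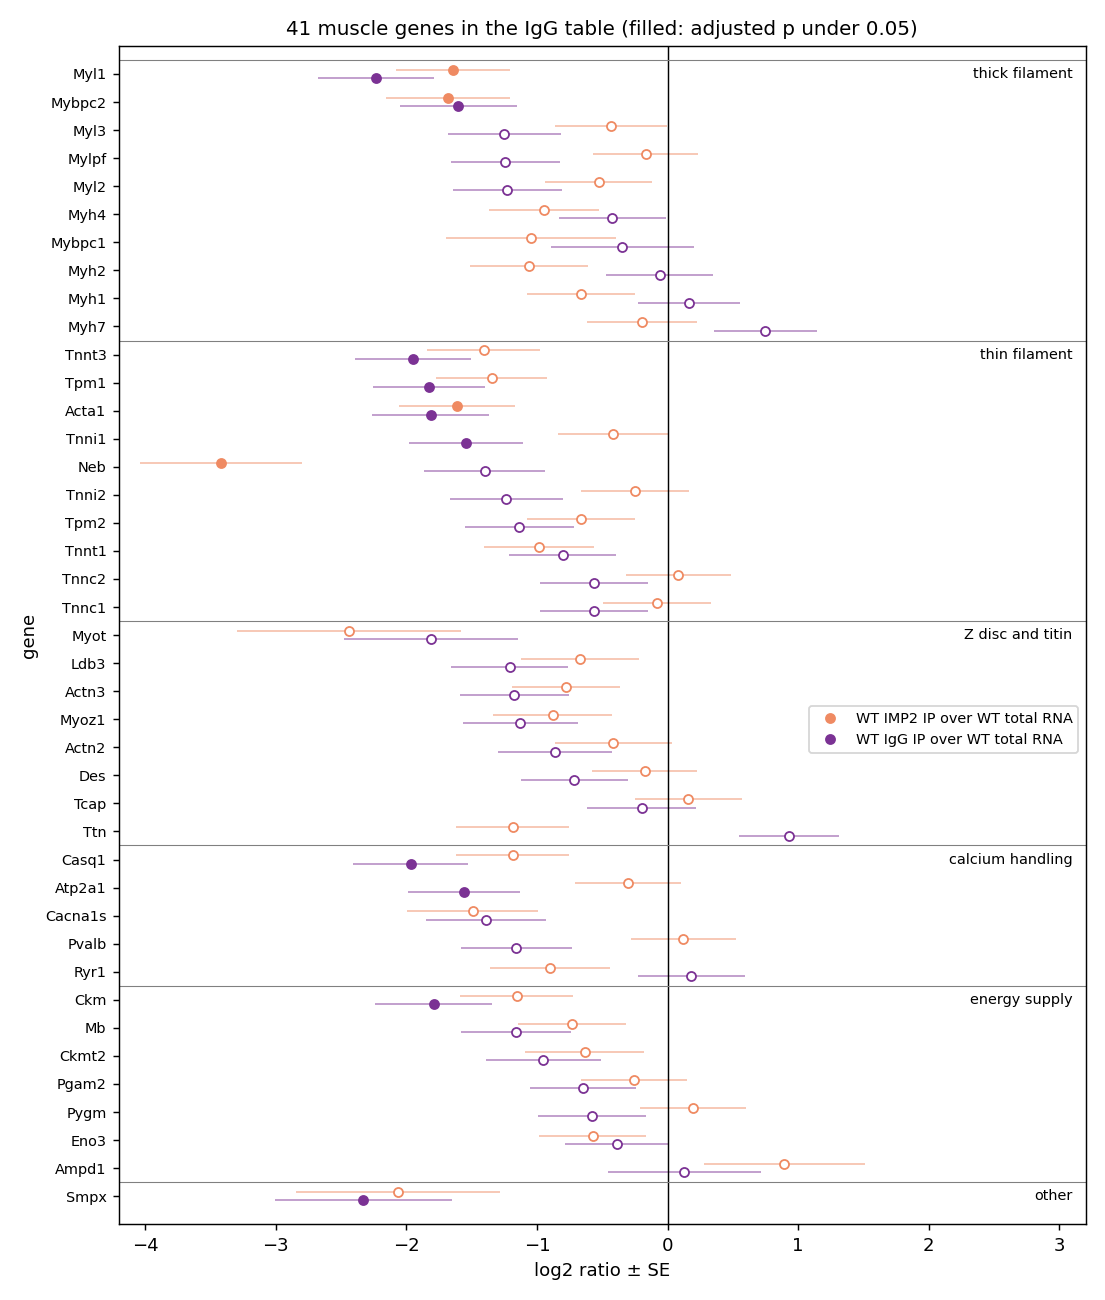
Log2 ratio of IP over total RNA with SE for the 41 members in the IgG table, grouped by role, for the IMP2 IP and the IgG IP, filled where the adjusted p was under 0.05. Filled points are 4 for the IMP2 IP and 10 for the IgG IP, all below 0.

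The thick filament genes summed to 1454 CPM in the IMP2 IP and 1675 CPM in the IgG IP, against 3289 and 1654 CPM in total RNA 15 and 20, with median log2 ratios to total RNA of -0.81 and -0.83. They are the myosin heavy chains that form the motor, the light chains that stiffen its lever arm, and the myosin binding proteins C. Myl1, a fast essential light chain, was at 93.5 CPM in IMP2 IP 25 and 62.0 CPM in IgG IP 26, against 333 and 251 CPM in total RNA 15 and 20. Both IPs were below both total RNA libraries, at log2 -1.64 ± 0.44 in the IMP2 IP (SE, adjusted p = 0.0259, edgeR) and -2.24 ± 0.44 in the IgG IP (adjusted p = 0.000406). Mybpc2, fast myosin binding protein C, was at 36.2 CPM in IMP2 IP 25 and 38.1 CPM in IgG IP 26, against 161 and 72.5 CPM in total RNA 15 and 20, and was lower at log2 -1.68 in the IMP2 IP (adjusted p = 0.0454) and -1.60 in the IgG IP (adjusted p = 0.0233). Without total RNA 15 the Mybpc2 ratio was -0.98 in the IMP2 IP and -0.92 in the IgG IP, values with no test. The Mybpc2 call in the IMP2 IP was lost with limma-voom (adjusted p = 0.161), with transcripts of a symbol summed (0.0681) and with DESeq2 (0.531), and that in the IgG IP by library size alone (0.0513) and with DESeq2 (0.215).

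Myh4, the heavy chain of the fastest fibres, was at 417 CPM in IMP2 IP 25 and 601 CPM in IgG IP 26, against 1161 and 451 CPM in total RNA 15 and 20. Myh1, the heavy chain of fast IIX fibres, was at 225 CPM in IMP2 IP 25 and 398 CPM in IgG IP 26, against 533 and 180.5 CPM in total RNA 15 and 20. For both the IgG IP was between the total RNA libraries, and reads of the closely similar heavy chains may have been split between them. Mylpf, the fast regulatory light chain, was at 274 CPM in IMP2 IP 25 and 130.2 CPM in IgG IP 26, against 355 and 260.2 CPM in total RNA 15 and 20, and Myl2, its slow and cardiac partner, at 161 CPM in IMP2 IP 25 and 99.1 CPM in IgG IP 26, against 279 and 186 CPM in total RNA 15 and 20. Mylpf overlaps Septin1 on the genome.

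Thin filament genes summed to 4608 CPM in the IMP2 IP and 3022 CPM in the IgG IP, against 9543 and 5621 CPM in total RNA 15 and 20, with median log2 ratios of -0.82 and -1.32. Neb, the ruler protein nebulin that runs along actin, was at 6.29 CPM in IMP2 IP 25 and 25.6 CPM in IgG IP 26, against 98.4 and 39.3 CPM in total RNA 15 and 20. It had only 8 counts in the IMP2 IP (95% exact Poisson interval 2.72 to 12.4 CPM, counting error only), against 140 counts in total RNA 15. The IMP2 IP was far below both total RNA libraries, at log2 -3.42 ± 0.62 (adjusted p = 0.000163), and was at -2.50 without total RNA 15, a value with no test. For the IgG IP the Neb value was -1.40 (adjusted p = 0.0811).

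Acta1 was at 647 CPM in IMP2 IP 25 and 562 CPM in IgG IP 26, against 2746 and 1206 CPM in total RNA 15 and 20 on the scale of the IgG table, lower at log2 -1.61 ± 0.44 in the IMP2 IP (adjusted p = 0.0345) and -1.81 ± 0.45 in the IgG IP (adjusted p = 0.00699). Without total RNA 15 these were -0.89 and -1.11, and without total RNA 20 they were -2.09 and -2.28, with no test in either case. With relative log expression scaling the IMP2 IP value of Acta1 missed the threshold. Reads that skeletal actin shares with other actins may have been split between them.

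Tnnt3 was at 469 CPM in IMP2 IP 25 and 321 CPM in IgG IP 26, against 1572 and 912 CPM in total RNA 15 and 20, and Tnni1, slow troponin I, at 106.9 CPM in IMP2 IP 25 and 48.8 CPM in IgG IP 26, against 177 and 109.1 CPM in total RNA 15 and 20. Tpm1, a tropomyosin, which covers the myosin sites on actin, was at 127 CPM in IMP2 IP 25 and 91.3 CPM in IgG IP 26, against 430.0 and 219 CPM in total RNA 15 and 20. In the IgG IP Tnnt3 was lower at log2 -1.95 (adjusted p = 0.00281), Tpm1 at -1.83 (adjusted p = 0.00450) and Tnni1 at -1.55 (adjusted p = 0.0269). In the IMP2 IP Tnnt3 was at -1.41, Tpm1 at -1.35 and Tnni1 at -0.42, and all 3 missed the threshold. Without total RNA 15 Tpm1 was at -1.26 in the IgG IP, with no test.

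Tpm1 has 10 listed transcripts with different ratios. The transcript used, with the highest sum, had 162 counts in the IMP2 IP and 374 in the IgG IP, against 612 and 580 in total RNA 15 and 20, while the fourth had 99 and 208 counts in these IPs, against 89 and 229 in total RNA. With all transcripts of a symbol summed, Tpm1 was at -1.34 in the IgG IP and missed the threshold.

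Tpm2, another tropomyosin, was at 408 CPM in IMP2 IP 25 and 294 CPM in IgG IP 26, against 793 and 498 CPM in total RNA 15 and 20. Tnni2 was at 1519 CPM in IMP2 IP 25 and 765 CPM in IgG IP 26, against 2155 and 1441 CPM in total RNA 15 and 20, and Tnnc2 at 1085 CPM in IMP2 IP 25 and 693 CPM in IgG IP 26, against 1078 and 965 CPM in total RNA 15 and 20. Tpm2, Tnni2 and Tnnc2 missed the threshold in both comparisons, and the IMP2 IP was between the total RNA libraries for Tnni2 and just above both for Tnnc2.

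Genes of the Z disc and titin summed to 2906 CPM in the IMP2 IP and 2541 CPM in the IgG IP, against 3972 and 2309 CPM in total RNA 15 and 20, with median log2 ratios of -0.72 and -0.995. Ttn, the giant spring protein, was at 88.8 CPM in IMP2 IP 25 and 386 CPM in IgG IP 26, against 267 and 139 CPM in total RNA 15 and 20. The IgG IP was the highest of the 4 libraries for Ttn and the IMP2 IP the lowest. Counts of Ttn were 113 in the IMP2 IP and 1579 in the IgG IP, against 380 and 367 in total RNA, and the other listed Ttn transcript had 101 and 1238 in the IPs, against 342 and 345. Tcap was at 2046 CPM in IMP2 IP 25 and 1594 CPM in IgG IP 26, against 2306 and 1349 CPM in total RNA 15 and 20, and Actn3, the fast-fibre actinin that crosslinks actin at the Z disc, at 269 CPM in IMP2 IP 25 and 204 CPM in IgG IP 26, against 599 and 321 CPM in total RNA 15 and 20. Des was at 349 CPM in IMP2 IP 25 and 239.8 CPM in IgG IP 26, against 436 and 350.4 CPM in total RNA 15 and 20.

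Calcium handling genes summed to 1811 CPM in the IMP2 IP and 857 CPM in the IgG IP, against 3024 and 1094 CPM in total RNA 15 and 20, with median log2 ratios of -0.90 and -1.39. Casq1, the calcium store protein of fast fibres, was at 105.3 CPM in IMP2 IP 25 and 61.3 CPM in IgG IP 26, against 375 and 106.9 CPM in total RNA 15 and 20. It was lower in the IgG IP, at log2 -1.97 ± 0.44 (adjusted p = 0.00242), and the value was -0.80 without total RNA 15 and -2.59 without total RNA 20, with no test in either case. Atp2a1 was at 516 CPM in IMP2 IP 25 and 217 CPM in IgG IP 26, against 934 and 343 CPM in total RNA 15 and 20, and was lower in the IgG IP, at log2 -1.56 (adjusted p = 0.0209) with -0.67 without total RNA 15 and -2.09 without total RNA 20. For both the 2 total RNA libraries stood far apart, and the IMP2 IP lay between them for Atp2a1 and just under the lower one for Casq1. Pvalb was at 1123 CPM in IMP2 IP 25 and 463 CPM in IgG IP 26, against 1525 and 542 CPM in total RNA 15 and 20, with the IMP2 IP between the total RNA libraries.

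Energy supply genes summed to 2122 CPM in the IMP2 IP and 1535 CPM in the IgG IP, against 4817 and 2533 CPM in total RNA 15 and 20, with median log2 ratios of -0.57 and -0.65. Ckm was at 925 CPM in IMP2 IP 25 and 594 CPM in IgG IP 26, against 2574 and 1536 CPM in total RNA 15 and 20. It was lower in the IgG IP, at log2 -1.79 ± 0.45 (adjusted p = 0.00836), and at -1.15 in the IMP2 IP (adjusted p = 0.296). Mb, myoglobin, which stores oxygen, was at 392 CPM in IMP2 IP 25 and 291 CPM in IgG IP 26, against 891 and 409 CPM in total RNA 15 and 20. Pgam2, a muscle phosphoglycerate mutase of glycolysis, was at 421 CPM in IMP2 IP 25 and 321 CPM in IgG IP 26, against 717 and 288 CPM in total RNA 15 and 20, and Eno3, muscle enolase, at 171 CPM in IMP2 IP 25 and 195 CPM in IgG IP 26, against 355 and 156 CPM in total RNA 15 and 20. Mb, Pgam2 and Eno3 missed the threshold in all 3 comparisons of the IgG table, and Mb and Eno3 overlap Apol6 and Pfn1 on the genome.

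Smpx was at 4.72 CPM in IMP2 IP 25 and 3.91 CPM in IgG IP 26, against 25.3 and 15.1 CPM in total RNA 15 and 20, with 6 and 16 counts in the IPs. It was lower in the IgG IP, at log2 -2.33 ± 0.68 (adjusted p = 0.0349) and at -2.06 in the IMP2 IP (adjusted p = 0.308). The remaining 15 members ran between 3.14 CPM (Myot) and 144 CPM (Pygm) in the IMP2 IP and 4.88 (Myot) and 176 CPM (Myh7) in the IgG IP, against 14.8 (Ampd1) and 320.4 CPM (Tnnt1) in total RNA 15 and 8.69 (Ampd1) and 144 CPM (Tnnt1) in total RNA 20. Against total RNA 13 of the 15 were below 0 in the IMP2 IP and 12 in the IgG IP, and their smallest adjusted p-values were 0.174 and 0.0836.

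The IMP2 IP was compared with the IgG IP directly, with 1 library on each side, to set what the IMP2 antibody brings down against what nonspecific IgG does. Values were above 0 for 28 members and below 0 for 13, with a median of log2 0.43 against -0.00555 for all genes, and 0.234% of genes were called. The spread in this model comes from total RNA 15 and 20 alone, with 1 residual degree of freedom, and is shared over genes. No replicate checks a difference between these IPs. Ttn was at log2 -2.12 ± 0.48, with an adjusted p of 0.00937 in edgeR and 0.639 in DESeq2. DESeq2 called 0 members and limma-voom 1, and with both tables in 1 model, where Ttn is not listed, 0 passed.

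Values below 0 were those of Ttn, Neb (-2.02), the ryanodine receptor Ryr1 that releases calcium (-1.08), the voltage sensor Cacna1s (-0.10), the heavy chains Myh2 (-1.0002), Myh7 (-0.95), Myh1 (-0.83) and Myh4 (-0.53), both myosin binding proteins C (Mybpc1 at -0.70 and Mybpc2 at -0.08), Myot (-0.63), Eno3 (-0.19) and Tnnt1 (-0.18). Titin, nebulin and the ryanodine receptor are among the largest proteins known, and transcript length was not analysed here. The highest values were those of Pvalb (1.28), Atp2a1 (1.25), Tnni1 (1.13) and Mylpf (1.07). The 40 members other than Ttn missed the edgeR threshold.

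Fast and slow partners were set against each other within a library, where the amount of muscle RNA again enters both sides of the ratio. Tnni2 counts per Tnni1 count were 14.2 in the IMP2 IP and 15.7 in the IgG IP, against 12.2 and 13.2 in total RNA 15 and 20. Tnnc2 per Tnnc1, the slow and cardiac troponin C, was 8.85 in the IMP2 IP and 7.91 in the IgG IP, against 6.24 and 11.02 in total RNA. For Tnni2 per Tnni1 both IPs were above both total RNA libraries, and for Tnnc2 per Tnnc1 both lay between them.

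For Tnnt3 per Tnnt1, the slow troponin T, the ratio was 4.01 in the IMP2 IP and 2.42 in the IgG IP, against 4.91 and 6.32 in total RNA. Myh4 per Myh7, the slow heavy chain, gave 4.58 in the IMP2 IP and 3.42 in the IgG IP, against 8.22 and 6.48 in total RNA. Myl1 per Myl3, the slow essential light chain, gave 0.992 in the IMP2 IP and 1.16 in the IgG IP, against 2.49 and 2.08 in total RNA. In these 3 pairs both IPs were below both total RNA libraries. Mylpf per Myl2 was 1.70 in the IMP2 IP and 1.31 in the IgG IP, against 1.27 and 1.40 in total RNA, and Atp2a1 per Atp2a2, the slow and cardiac pump, 7.06 in the IMP2 IP and 2.64 in the IgG IP, against 6.48 and 3.78 in total RNA.

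Other genes of skeletal muscle were read from a list of 76, of which 55 were in the IgG table and 54 could be tested. In total RNA the highest CPM were those of Cox8b and Cox7a1, respiratory chain subunits that brown fat makes as well. Cox8b was at 4881 CPM in the IMP2 IP and 2971 CPM in the IgG IP, against 5269.9 and 8332 CPM in total RNA 15 and 20, and Cox7a1 at 689 CPM in the IMP2 IP and 357 CPM in the IgG IP, against 822 and 986 CPM in total RNA 15 and 20. Both were higher in total RNA 20 than in 15, the reverse of the contractile genes. Cox8b was also lower in IMP2 IPs of the knockout table, at log2 -0.60 in WT and -0.82 in KO, as was Cox7a1 at -0.50 in KO, and glycogen synthase Gys1 was higher there at 0.50.

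Of the 54 genes 3 fell in IMP2 IP 25 against total RNA, where 0.859% of all genes did, with a list median of log2 -0.44. Trdn, triadin of the calcium release complex, was at log2 -2.88, the actin-binding Xirp2 at -1.98 and Apobec2, a muscle member of a deaminase family, at -2.10. In the IgG IP 6 of the 54 fell, where 1.52% of all genes did, with a list median of -0.64. They were Myoz2 of the Z disc (-2.16), Apobec2 (-1.91), the LIM domain genes Fhl1 (-1.62) and Fhl3 (-1.52), the small heat shock protein Cryab (-1.53) and Jsrp1 of the calcium release complex (-1.48). Trdn was at 11.01 CPM in the IMP2 IP and 65.7 CPM in the IgG IP, against 133 and 32.5 CPM in total RNA 15 and 20. For the IMP2 IP over the IgG IP, with 1 library on each side, Trdn was at log2 -2.57. The list median of that comparison was 0.27.

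Marker lists of muscle and other cell types were then read. Fast fibre markers, 12 of 12 listed, summed to 6090.0 CPM in the IMP2 IP and 3992 CPM in the IgG IP, against 10606 and 5648 CPM in total RNA 15 and 20. Slow fibre markers, 8 of 8 listed, summed to 715 CPM in the IMP2 IP and 613 CPM in the IgG IP, against 1244 and 732 CPM in total RNA 15 and 20. Both lists were higher in total RNA 15 than in total RNA 20, as the contractile genes were. Of 8 heart muscle markers 1 was listed, the atrial light chain Myl4, at 11.7 to 22.0 CPM. Of 7 satellite cell and myoblast markers 0 were listed.

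Smooth muscle markers, 5 of 8 listed, summed to 92.8 CPM in the IMP2 IP and 86.9 CPM in the IgG IP, against 93.4 and 82.7 CPM in total RNA 15 and 20. The 8 brown adipocyte markers of both tables summed to 42920 to 48345 CPM in IMP2 IPs and 46087 CPM in the IgG IP. In total RNA they summed to 37320 to 48623 CPM. Over IPs and total RNA together the sum of the fibre genes spanned 73.7-fold. The sum of the adipocyte markers hides opposite moves of single markers in IMP2 IPs of the knockout table against total RNA (edgeR). In WT 1 of 8 was called higher and 1 lower, where 22.4% of all genes were called. In KO 2 were higher and 1 lower, where 26.3% were called. Fabp4 was higher at log2 1.01 in WT (adjusted p = 0.018) and 1.06 in KO (0.013), and Plin5 at 0.52 in KO (0.030). Cox8b was lower in both, as given above.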

How the data were processed

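RNA immunoprecipitation and total RNA were measured in 12 brown fat libraries, while 14 liver samples are not analysed here. What the authors deposited are unscaled whole counts, 1 per transcript and library. Per the submitters' processing notes, TopHat2 2.0.8, Cufflinks 2.1.1 and the build mm10 were used. How reads were counted, on which annotation and whether by strand, is not given in the sources used here. Transcripts without a symbol (117 and 835) were named by accession from a GRCm38.p6 RefSeq table where possible (114 and 813). The 3 and 22 left unnamed, with 8.65 to 29.15% and 7.39 to 15.84% of counts per library, stayed out of library sizes and tests.

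Groups follow the labels, and libraries were treated as unpaired. After TMM scaling, edgeR 4.0.16 (R 4.3.3) fitted its quasi-likelihood model across all genes of a table, with Benjamini-Hochberg adjustment and a threshold of 0.05. Residual degrees of freedom were 4 in the knockout table and 1 in the IgG table, where the filter on low counts left 8966 genes. All 41 members passed it. For the 8 fibre genes and Des a covariate, log2 summed CPM of the other fibre genes, was added. Alternatives were other scalings, filters, DESeq2 1.42.0, limma-voom (limma 3.58.1), summed transcripts, both tables together and each library left out. Methods were tested on simulated data. Summed counts set the counting error, and Poisson intervals at 95% cover that error only.

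Members and lists were chosen with earlier results of these data known. Named in full are the members of the knockout table and, in the IgG table, the 12 with the highest mean CPM in total RNA and those past the threshold. Of other lists described, genes past the threshold are named. For the other skeletal muscle genes and the brown adipocyte markers the 2 most abundant are named too. Overlaps between genes were read from the RefSeq table. Of members past the threshold, Mybpc2 also overlaps Fam71e1, Casq1 overlaps Gm17224, and Neb overlaps Gm52510 and 4930573O16Rik. Shared reads cannot be told apart for these either.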

Additional observations from a re-analysis of the deposited data

How the results depend on the processing

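No paired analysis was run, since the labels match no IP to a total RNA library. Whether an IP and a total RNA library came from the same piece of tissue is not given. A pairing, if there was one, could change the tests of IP over total RNA. In the knockout table the counts of members called stayed at 0 for both KO over WT comparisons and for KO minus WT under every alternative run. For WT IMP2 IP over total RNA the count was 1 with both tables together and 7 with the covariate, and for KO IMP2 IP over total RNA 6 with the covariate, an alternative chosen after seeing the data. In the IgG table the count for IMP2 IP over total RNA was 1 with DESeq2 and 1 with both tables together, where 9 members are tested. For IgG IP over total RNA it was 6 by library size alone, 4 with DESeq2 and 0 with both tables together, and for IMP2 IP over IgG IP 0 with DESeq2 and 0 with both tables together. With the covariate and 1 library left out, the count was 4 to 7 for WT IMP2 IP over total RNA and 2 to 6 for KO IMP2 IP over total RNA, with 4 without WT IP 22, 3 without KO total RNA 18 or 19 and 2 without KO IP 24.

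Signs turned for uncalled members only, and the cause was not tested. For WT IMP2 IP over total RNA log2 values were -0.04 for Tcap and -0.13 for Tnni2 with limma-voom, and -0.13 for Tnni2 with both tables together. For KO IMP2 IP over total RNA they were -0.19 for Tnnc2 and -0.06 for Pvalb with limma-voom, and for Des 0.14 with upper-quartile scaling, 0.10 by library size alone and 0.02 with both tables together. Upper-quartile scaling moved the median of all genes by 0.14 in WT and 0.17 in KO, and library size alone by 0.13 in KO. With 1 library left out, values in WT IMP2 IP over total RNA ran over -1.96 to 0.53 for Atp2a1, -0.35 to 0.02 for Des, -2.04 to 2.04 for Tcap, -1.26 to 1.39 for Tnnc2, -1.91 to 1.69 for Tnni2 and -1.28 to 1.59 for Pvalb. In KO IMP2 IP over total RNA they ran over -1.77 to 0.78 for Atp2a1, -0.07 to 0.04 for Des, -1.70 to 1.22 for Tcap, -1.48 to 1.57 for Tnnc2, -1.87 to 1.05 for Tnni2 and -0.97 to 1.12 for Pvalb. With the covariate, Atp2a1 in WT IMP2 IP over total RNA was at -0.13 in the knockout table alone and ran over -0.12 to 0.30 without 1 library (-0.03 without WT IMP2 IP 21, -0.10 without WT IMP2 IP 25). In IgG IP over total RNA Tnni2 ran over -0.01 to 0.37 and Pvalb over -0.14 to 0.38.

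Leaving out total RNA 15 or 20 leaves no spread in the IgG table, so those values have no test, and leaving out library 25 or 26 gives no value for its own comparisons. Models of the compared groups alone were not run for KO minus WT, which needs all 4 groups. Depth limits Neb and Smpx, which had 8 and 6 counts in the IMP2 IP.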

Other observations

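A930016O22Rik, the noncoding gene that overlaps Ckm (chr7:19417466-19421417 within chr7:19411094-19421583, GRCm38.p6), followed Ckm in each library. It was at 15.4 and 60.9 CPM in KO IMP2 IPs 23 and 24, 128 and 267 CPM in WT IMP2 IPs 21 and 22, 58.4 and 207 CPM in KO total RNA 18 and 19, and 287 and 851 CPM in WT total RNA 16 and 17. In the IgG table it was at 622 CPM in the IMP2 IP and 534 CPM in the IgG IP, against 1773 and 1348 CPM in total RNA 15 and 20. Whether these reads belong to Ckm cannot be told apart without strand.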
